A study of Mus musculus with 10 samples.

Results

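Conventional dendritic cells fall into the subsets cDC1 and cDC2, and 9 genes that mark them were examined in cells sorted from the ischemic mouse brain. Clec9a, Cadm1, Wdfy4, Naaa and Cd24a were taken as markers of cDC1, and Cd209a, Mgl2, Clec10a and Sirpa as markers of cDC2. They were chosen by name as known subset markers, with earlier results of these data known, as were the gene lists used below. They are 5 and 4 of the 28585 genes counted, and all 9 passed the filter on low counts.

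RNA of fluorescent cells from the ischemic hemisphere was sequenced in 10 libraries, without antibody staining before the sort. The transgenic CD11c cells were CD11c-eYFP+ cells of Tg(Itgax-Venus)1Mnz mice aged 13 to 14 weeks (4 libraries, replicates 23, 24, 26 and 27). The parabiotic CD11c cells were CD11c-eYFP+ cells of C57BL/6 mice aged 15 to 16 weeks that shared a circulation with a Tg(Itgax-Venus)1Mnz partner (3 libraries, replicates 3, 11 and 15). The microglia were CX3CR1+ cells of CX3CR1CreERT2:Rosa26-tdT mice aged 13 to 14 weeks (3 libraries, replicates 39, 40 and 41). The labels give the mice as female, without a sex for parabiotic replicate 15, and all tissue as ischemic, so no group shows the genes without ischemia. The eYFP reporter is driven by the promoter of Itgax, the gene of CD11c, and in the parabiotic group it came from the partner, so by the design those cells came through the shared blood. Any cell that uses the Itgax promoter is collected in the transgenic group, and any cell that uses Cx3cr1 can carry the reporter of the microglia group. Where nothing in the labels says that libraries came from separate animals, p-values measure only the spread between these samples.

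Dendritic cells take up antigen and present it to T cells. The cDC1 subset, which depends on the transcription factors IRF8 and BATF3, specialises in passing material from dead cells to CD8 T cells, a process called cross-presentation. The cDC2 subset, which depends in part on IRF4, KLF4 and NOTCH2, presents mainly to CD4 T cells and shares many surface receptors with macrophages and monocyte-derived cells.

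Levels are CPM, a gene's count relative to its library's total, scaled by TMM to correct for composition between libraries. Library totals ran between 31534625 and 41730688 counts. Each fold change is a log2 value with its SE, taken from the quasi-likelihood test of edgeR with Benjamini-Hochberg adjustment over the 15151 genes tested, and a gene is said to be called where its adjusted p is below 0.05. A list of 12 microglial genes summed to 7294 to 19866 CPM in transgenic, 2936 to 4872 in parabiotic and 22742 to 25350 in microglia libraries. A list of 15 genes of conventional dendritic cells summed to 4813 to 19978 CPM in transgenic, 32298 to 41457 in parabiotic and 249 to 388 in microglia libraries. Itgax stood at 224 ± 127 CPM in transgenic cells, 504 ± 54.3 in parabiotic cells and 44.4 ± 18.9 in microglia (SD, n = 4, 3 and 3). The transgenic libraries lay between the other groups on both sums, and their replicates 26 and 27, which are numbered outside the consecutive run of the other 8 libraries, differed from replicates 23 and 24 in many of the markers. The tests of the 9 markers in transgenic cells are therefore also given without them, as are most list counts and named genes, a choice made after the data were seen. In that fit of 8 libraries, 15.6% of 15446 genes were called in transgenic cells against microglia (9.96% higher, 5.69% lower), 22.5% in transgenic against parabiotic cells (13.3% higher, 9.23% lower) and 8334 genes in parabiotic cells against microglia. In bulk RNA of sorted cells, fewer cells of a type and less RNA per cell cannot be told apart.

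The cDC2 lectin genes Mgl2 and Clec10a are neighbours that share identical stretches of sequence, which bears on how their counts can be read. Mgl2 lies at chr11:70130329-70137550 and Clec10a at chr11:70156197-70170834, both on the + strand of GRCm38. Their coding sequences share an identical run of 183 bases, which lies in exons 7 to 9 of Mgl2 (chr11:70136337-70136699 with introns) and exons 6 to 8 of Clec10a (chr11:70169822-70170189 with introns). It is shown in capitals below, spliced, with 20 flanking bases on each side in lower case, so that the printed stretches span chr11:70136317-70136719 and chr11:70169802-70170209.
Mgl2: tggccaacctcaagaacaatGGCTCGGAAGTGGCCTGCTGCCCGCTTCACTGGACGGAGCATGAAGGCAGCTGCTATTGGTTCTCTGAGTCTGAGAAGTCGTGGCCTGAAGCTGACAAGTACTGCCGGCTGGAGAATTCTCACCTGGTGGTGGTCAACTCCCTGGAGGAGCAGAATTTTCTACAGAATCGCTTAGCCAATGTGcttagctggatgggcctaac
Clec10a: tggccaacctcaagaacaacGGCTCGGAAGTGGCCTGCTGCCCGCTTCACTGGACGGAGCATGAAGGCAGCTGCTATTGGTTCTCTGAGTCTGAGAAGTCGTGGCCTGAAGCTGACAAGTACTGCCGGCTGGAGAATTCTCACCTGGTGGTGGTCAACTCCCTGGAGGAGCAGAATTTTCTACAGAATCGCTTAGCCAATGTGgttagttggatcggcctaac
Of all stretches of 50 bases in the transcripts of Mgl2, 12.2% also occur in those of Clec10a, and 8.49% of the stretches of Clec10a occur in those of Mgl2. At 100 bases the shares were 3.95% for Mgl2 and 2.64% for Clec10a. No source used here says how reads that fit both genes were counted, and the split of counts between these genes is uncertain. Of the other markers, Clec9a shared 4.02% of its stretches of 50 bases with its neighbour Clec1b, Cd24a 2.75% with Gm6212 and Naaa 1.49% with other genes. Cadm1, Wdfy4, Cd209a and Sirpa shared none.

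Promoters were available for 5 of the 9 genes (Clec9a, Wdfy4, Naaa, Cd209a and Mgl2). Those of Clec9a, Cd209a and Mgl2 are shown because these genes were the called lectin genes with a sequence at hand, each higher in both kinds of CD11c cell than in microglia. Each is the 250 bases before the gene start in RefSeq on GRCm38.p6, written along the strand of the gene, at chr6:129408612-129408861 (+ strand), chr8:3748985-3749234 (− strand) and chr11:70130107-70130356 (+ strand). Capitals mark matches to motifs of transcription factors known in dendritic cells.
Clec9a: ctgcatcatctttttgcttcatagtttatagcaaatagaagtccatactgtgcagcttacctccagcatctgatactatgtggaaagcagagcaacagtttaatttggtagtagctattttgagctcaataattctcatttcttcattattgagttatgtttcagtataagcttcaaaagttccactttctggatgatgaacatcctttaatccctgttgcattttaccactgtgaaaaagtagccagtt
Cd209a: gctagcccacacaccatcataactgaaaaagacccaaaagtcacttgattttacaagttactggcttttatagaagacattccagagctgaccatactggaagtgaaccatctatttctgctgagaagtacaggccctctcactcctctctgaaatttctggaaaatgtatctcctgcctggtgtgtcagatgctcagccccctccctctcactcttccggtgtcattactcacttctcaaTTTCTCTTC
Mgl2: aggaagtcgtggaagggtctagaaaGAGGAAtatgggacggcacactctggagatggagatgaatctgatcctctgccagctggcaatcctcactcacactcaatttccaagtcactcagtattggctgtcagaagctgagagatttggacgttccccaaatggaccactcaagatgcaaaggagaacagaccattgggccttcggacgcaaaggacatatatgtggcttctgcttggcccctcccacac
In windows of 300 bases, which also take in the first 50 bases of the transcript, 4 motifs were searched on both strands. The Ets-IRF composite (GGAA and GAAA with 2 free bases between them), bound by PU.1 with IRF4 or IRF8, had a match in Cd209a, on the opposite strand and beginning 9 bases before the start, and it occurs in 2.72% of 32851 promoters. The PU.1 core GAGGAA had a match in Mgl2, beginning 225 bases before the start, and occurs in 28.3% of promoters. The core of the interferon-stimulated response element (GAAA, 2 free bases, GAAA; 3.44% of promoters) and the AP-1 motif TGANTCA (7.81%) had no match in the 5 windows, and none of the motifs had one in Clec9a, Wdfy4 or Naaa. The composite and the response element core share their GAAA part and can overlap.

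Against microglia, parabiotic CD11c cells had higher levels of 6 of the 9 markers and lower levels of 2. Clec9a, Naaa, Cd24a, Cd209a, Mgl2 and Clec10a were called higher, Cadm1 and Sirpa were called lower, and Wdfy4 was not called. Over all tested genes 35.3% were called in this comparison, 17.4% higher and 17.9% lower. For all 9 markers the libraries of the groups were fully separated, 7 with parabiotic cells above microglia and 2 below, and this was so for 60.3% of all tested genes (30.5% above, 29.7% below). Transgenic CD11c cells had 4 of the 9 markers higher than microglia (Clec9a, Cd24a, Cd209a and Mgl2) and none lower, where 13.7% of all genes were called, 8.88% higher and 4.79% lower. The libraries were fully separated for 5 of the 9, these 4 above microglia and Sirpa below, and for 30.3% of all genes (15.6% above, 14.7% below). When transgenic cells were set against parabiotic cells 1 marker, Cadm1, was called, higher in transgenic cells, where 10.1% of all genes were called, 7.63% higher and 2.42% lower. Full separation was seen for Cadm1, above the parabiotic libraries, and Clec10a, below them, and for 22.7% of all genes (12.4% above, 10.3% below).

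**Figure D1:**
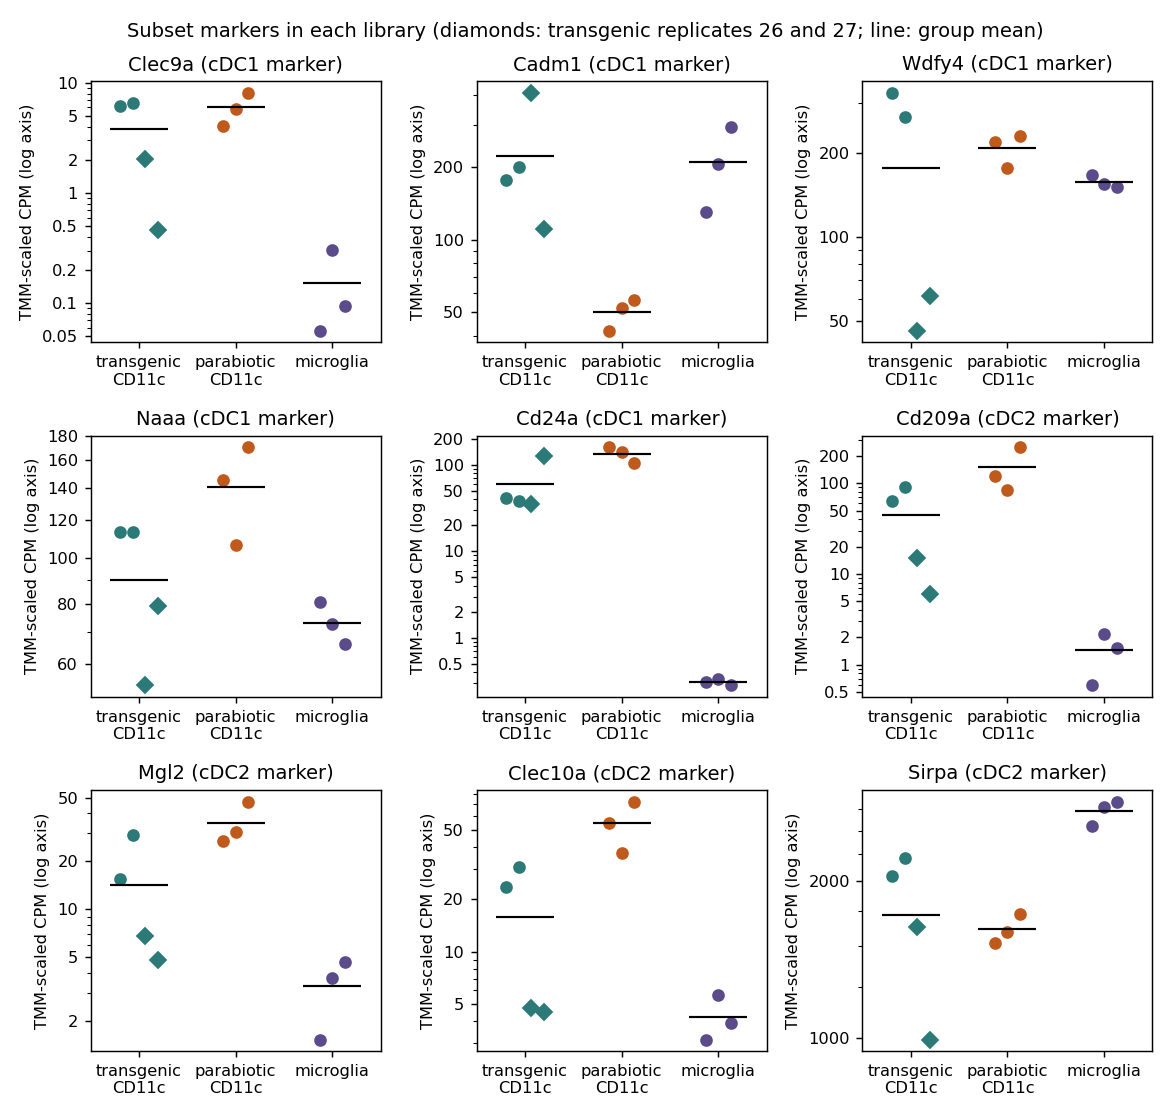
TMM-scaled CPM (log axis) of each marker in each library, with transgenic cells left, parabiotic cells in the middle and microglia right; a point is a library, a diamond is transgenic replicate 26 or 27, and the line is the group mean. Cd24a in microglia lies between 0.285 and 0.338 CPM, below all 7 libraries of CD11c cells, while Sirpa is highest in microglia at 2557 to 2838 CPM.

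Among the cDC1 markers, Clec9a encodes a lectin that senses actin filaments exposed by dead cells and lies at chr6:129408862-129424763 on the + strand. Its level was 6.11, 6.55, 2.05 and 0.463 CPM in transgenic replicates 23, 24, 26 and 27, 4.05, 5.81 and 8.11 CPM in parabiotic replicates 3, 11 and 15, and 0.0565, 0.307 and 0.0950 CPM in microglia replicates 39, 40 and 41. Transgenic replicates 23 and 24 lay within the parabiotic range, replicates 26 and 27 below it, and all 7 libraries of CD11c cells above all microglia. The microglia values rest on 2, 10 and 3 counts, with exact 95% Poisson intervals of 0.00684 to 0.204, 0.147 to 0.565 and 0.0196 to 0.278 CPM, which cover counting error only. The interval of transgenic replicate 27, which had 19 counts, was 0.279 to 0.723 CPM and overlapped that of microglia replicate 40. Clec9a was higher than in microglia in parabiotic cells (5.27 ± 0.98, adjusted p = 0.00172) and in transgenic cells (4.61 ± 0.94, adjusted p = 0.00991). The difference between transgenic and parabiotic cells was -0.66 ± 0.70 (adjusted p = 0.639). Without replicates 26 and 27 it was 0.07 ± 0.38 (adjusted p = 0.927), and transgenic cells against microglia gave 5.35 ± 0.50. With all transgenic libraries, the call of Clec9a in transgenic cells against microglia was lost with limma-voom (adjusted p = 0.0876) and without microglia replicate 39 (adjusted p = 0.0619).

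Cd24a, at chr10:43578284-43584265 on the + strand, encodes a small glycoprotein on the surface of cDC1 that is also abundant on neutrophils, immature B cells and red cell precursors. It had the highest log2 fold change against microglia of the 9 markers. Its level was 41.7, 38.2, 35.1 and 125 CPM in transgenic replicates 23, 24, 26 and 27, 159.8, 139.7 and 106 CPM in parabiotic replicates 3, 11 and 15, and 0.311, 0.338 and 0.285 CPM in microglia replicates 39, 40 and 41. Transgenic replicate 27 lay inside the parabiotic range and the other 3 transgenic libraries below it, an order unlike that of Clec9a, where replicate 27 was lowest. Cd24a was higher than in microglia by 8.75 ± 0.63 in parabiotic cells (adjusted p = 5.7e-06) and by 7.58 ± 0.60 in transgenic cells (adjusted p = 5.87e-05). It differed between transgenic and parabiotic cells by -1.17 ± 0.39 (adjusted p = 0.0914). Without transgenic replicate 27 alone this was -1.81 (adjusted p = 7.1e-05), and without replicates 26 and 27 it was -1.77 ± 0.17 (adjusted p = 6.76e-05). Against microglia the transgenic value without those libraries was 6.98 ± 0.22 (adjusted p = 3.57e-08).

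Other cells that carry Cd24a were looked for in the same libraries. The summed level of 11 neutrophil genes was 128 to 324 CPM in transgenic, 211 to 1167 in parabiotic and 412 to 492 in microglia libraries. Csf3r alone gave 410 to 489 CPM of this in microglia and 69.9 to 300 CPM in transgenic libraries, so the sum there mostly reads Csf3r. The number of the 11 genes at 1 CPM or more was 2 to 4 in transgenic, 4 to 11 in parabiotic and 1 to 2 in microglia libraries. The neutrophil gene S100a8 stood at 0.419, 0.189, 2.94 and 17.8 CPM in transgenic replicates 23, 24, 26 and 27, at 5.05, 202 and 23.2 CPM in parabiotic replicates 3, 11 and 15, and at 0.0317 to 0.154 CPM in microglia. The neutrophil granule gene Ngp had no count in any transgenic library, but 0.316, 189 and 27.1 CPM in parabiotic replicates 3, 11 and 15. Parabiotic replicate 11, with the highest neutrophil genes, lay between parabiotic replicates 3 and 15 in Cd24a. Transgenic replicate 27 was highest of its group in both Cd24a and S100a8, with no count of Ngp. The summed level of 8 B cell genes was 44.4 to 266 CPM in transgenic, 134 to 248 in parabiotic and 307 to 334 in microglia libraries. In the same order, 3 to 4, 4 to 6 and 3 of them stood at 1 CPM or more. Ighm, at 194 to 256 CPM, and Cd22, at 48.4 to 95.3 CPM, made up most of the sum in microglia. The summed level of 4 red cell genes was 1.05 to 1.87 CPM in transgenic, 0.775 to 2.25 in parabiotic and 0.0614 to 0.253 in microglia libraries. The part of these cells in the Cd24a levels was not tested.

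Naaa, at chr5:92257659-92278170 on the − strand, encodes a lysosomal enzyme that breaks down the lipid mediator palmitoylethanolamide. Its level was 113, 113, 54.2 and 79.3 CPM in transgenic replicates 23, 24, 26 and 27, 146, 107 and 170.1 CPM in parabiotic replicates 3, 11 and 15, and 80.8, 72.7 and 65.9 CPM in microglia replicates 39, 40 and 41. The parabiotic libraries lay above all microglia, while the transgenic libraries spread from above to below them. Naaa was called higher in parabiotic cells than in microglia (0.94 ± 0.27, adjusted p = 0.0205), a call that was lost when parabiotic replicate 3 or 15 or microglia replicate 40 or 41 was left out (adjusted p between 0.0595 and 0.0845). In transgenic cells it differed from microglia by 0.30 ± 0.26 (adjusted p = 0.441) and from parabiotic cells by -0.64 ± 0.25 (adjusted p = 0.144). Without transgenic replicates 26 and 27 these were 0.63 ± 0.17 (adjusted p = 0.0327) and -0.33 ± 0.17 (adjusted p = 0.211).

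Wdfy4, at chr14:32959547-33185508 on the − strand, encodes a large protein that cDC1 need to cross-present antigen from cells. Its level was 327, 268, 46.2 and 61.2 CPM in transgenic replicates 23, 24, 26 and 27, 217, 176 and 230.1 CPM in parabiotic replicates 3, 11 and 15, and 166, 154 and 151 CPM in microglia replicates 39, 40 and 41. The transgenic libraries split to either side of both other groups: replicates 23 and 24 lay above every parabiotic library and replicates 26 and 27 below every microglia library. Wdfy4 was not called in any comparison of all 10 libraries, with 0.40 ± 0.60 in parabiotic cells against microglia (adjusted p = 0.639), 0.16 ± 0.56 in transgenic cells against microglia (adjusted p = 0.866) and -0.24 ± 0.56 in transgenic against parabiotic cells (adjusted p = 0.853). Without transgenic replicates 26 and 27, all 3 comparisons called it higher, by 0.41 ± 0.12 (adjusted p = 0.0169), 0.92 ± 0.14 (adjusted p = 0.00118) and 0.50 ± 0.14 (adjusted p = 0.0252) in the same order. With a fit on parabiotic cells and microglia alone its adjusted p was 0.0215. At 151 to 166 CPM in microglia, Wdfy4 was not confined to the CD11c cells.

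Cadm1, at chr9:47530173-47857637 on the + strand, encodes an adhesion molecule that binds the T cell receptor CRTAM. It was the cDC1 marker with the opposite order. Its level was 178, 200.0, 408 and 111 CPM in transgenic replicates 23, 24, 26 and 27, 42.0, 52.0 and 56.5 CPM in parabiotic replicates 3, 11 and 15, and 131, 207 and 294 CPM in microglia replicates 39, 40 and 41. The 3 parabiotic libraries were lowest, and transgenic and microglia libraries overlapped. Cadm1 fell by 2.07 on the log2 scale in parabiotic cells against microglia (SE 0.43, adjusted p = 0.00351) and was higher by 2.16 ± 0.42 in transgenic than in parabiotic cells (adjusted p = 0.00728). Transgenic cells and microglia differed by 0.09 ± 0.39 (adjusted p = 0.893). Without transgenic replicates 26 and 27, the difference from parabiotic cells was 1.90 ± 0.28 (adjusted p = 0.00165) and that from microglia was -0.16 ± 0.28 (adjusted p = 0.763). Between transgenic and parabiotic cells the microglial genes went the same way as Cadm1. Their sum was 7294 to 19866 CPM in transgenic, 2936 to 4872 in parabiotic and 22742 to 25350 in microglia libraries. In transgenic against parabiotic cells 10 of the 12 were called higher, where 7.63% of all genes were. Without transgenic replicates 26 and 27 it was 11, where 13.3% were. Unlike Cadm1, 5 of the 12 were called lower in transgenic cells than in microglia, where 4.79% of all genes were. Without transgenic replicates 26 and 27 it was 7, where 5.69% were. The part of the microglial genes in the level of Cadm1 was not tested.

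Among the cDC2 markers, Cd209a, at chr8:3743397-3748984 on the − strand, encodes a C-type lectin related to human DC-SIGN. Its level was 63.8, 92.1, 14.9 and 5.94 CPM in transgenic replicates 23, 24, 26 and 27, 121, 85.3 and 249 CPM in parabiotic replicates 3, 11 and 15, and 0.593, 2.18 and 1.52 CPM in microglia replicates 39, 40 and 41. All libraries of CD11c cells lay above all microglia, and transgenic replicate 24 reached into the parabiotic range. Cd209a was higher than in microglia in parabiotic cells (6.73 ± 1.06, adjusted p = 0.000604) and in transgenic cells (4.95 ± 0.97, adjusted p = 0.00797). It differed by -1.78 ± 0.76 between transgenic and parabiotic cells (adjusted p = 0.178), and by -0.98 ± 0.47 without replicates 26 and 27 (adjusted p = 0.174). Transgenic cells against microglia gave 5.77 ± 0.56 without those libraries (adjusted p = 0.000157). With them, this call of Cd209a was lost with limma-voom (adjusted p = 0.068), without the low-count filter (adjusted p = 0.056) and without microglia replicate 39 (adjusted p = 0.0515).

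Mgl2 encodes a lectin for galactose and N-acetylgalactosamine, known as CD301b. Its level was 15.6, 29.4, 6.81 and 4.80 CPM in transgenic replicates 23, 24, 26 and 27, 26.7, 30.6 and 47.3 CPM in parabiotic replicates 3, 11 and 15, and 1.53, 3.68 and 4.69 CPM in microglia replicates 39, 40 and 41. Transgenic replicate 27 lay just above the highest microglia library, and replicate 24 inside the parabiotic range. Mgl2 was higher than in microglia in parabiotic cells (3.40 ± 0.66, adjusted p = 0.00231) and in transgenic cells (2.10 ± 0.61, adjusted p = 0.0437). The call in transgenic cells was lost when any library other than transgenic replicate 26 or 27 was left out (adjusted p between 0.0581 and 0.172). It was also lost with limma-voom (adjusted p = 0.0977), without the low-count filter (adjusted p = 0.133) and with a fit of the 2 groups alone (adjusted p = 0.0859). Without both replicates 26 and 27 the value against microglia was 2.77 ± 0.44 (adjusted p = 0.00268). Mgl2 differed between transgenic and parabiotic cells by -1.30 ± 0.55 (adjusted p = 0.18), and by -0.65 ± 0.43 without those libraries (adjusted p = 0.321).

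Clec10a encodes the sister lectin CD301a, which macrophages also use. Its level was 23.4, 30.5, 4.78 and 4.51 CPM in transgenic replicates 23, 24, 26 and 27, 55.1, 37.0 and 72.5 CPM in parabiotic replicates 3, 11 and 15, and 3.14, 5.65 and 3.89 CPM in microglia replicates 39, 40 and 41. Transgenic replicates 26 and 27 lay within the microglia range, and no transgenic library reached the parabiotic range. Clec10a was higher in parabiotic cells than in microglia by 3.70 ± 0.72 (adjusted p = 0.00228), and the transgenic cells gave 1.90 ± 0.65 against microglia (adjusted p = 0.0713). Without replicates 26 and 27 the transgenic value was 2.67 ± 0.30 (adjusted p = 0.000237). Against parabiotic cells it was -1.80 ± 0.60 (adjusted p = 0.0882), and -1.04 ± 0.30 without those libraries (adjusted p = 0.0316).

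Sirpa, at chr2:129592835-129632228 on the + strand, encodes the inhibitory receptor for CD47, which is used to separate cDC2 from cDC1 but is also carried by microglia and macrophages. Its level was 2046, 2216, 1634 and 992 CPM in transgenic replicates 23, 24, 26 and 27, 1520.4, 1597 and 1732 CPM in parabiotic replicates 3, 11 and 15, and 2557, 2776 and 2838 CPM in microglia replicates 39, 40 and 41. Every library of CD11c cells lay below every microglia library. Sirpa fell by 0.75 on the log2 scale in parabiotic cells against microglia (SE 0.25, adjusted p = 0.0390). This call was lost when any 1 of the 6 libraries of these groups was left out (adjusted p between 0.0735 and 0.12). In transgenic cells the value was -0.66 ± 0.23 against microglia (adjusted p = 0.0808) and 0.09 ± 0.24 against parabiotic cells (adjusted p = 0.871). Without replicates 26 and 27 these were -0.36 ± 0.12 (adjusted p = 0.0796) and 0.38 ± 0.12 (adjusted p = 0.0453).

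**Figure D2:**
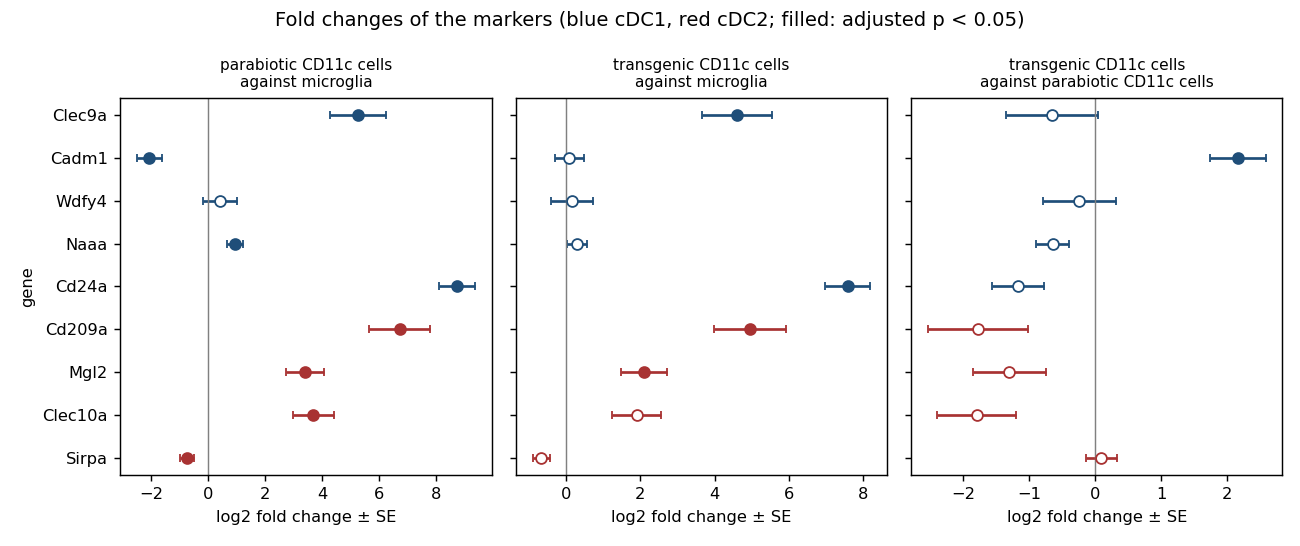
Log2 fold changes ± SE of the 9 markers in the 3 comparisons, with cDC1 markers in blue and cDC2 markers in red; filled points had an adjusted p below 0.05. Cd24a has the highest value against microglia in both kinds of CD11c cell (8.75 and 7.58), Cadm1 and Sirpa lie below 0 in parabiotic cells, and Cadm1 is the filled point between transgenic and parabiotic cells.

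Between transgenic and parabiotic cells, edgeR's quasi-likelihood test called 0 of the 4 cDC2 markers, with 3 at an unadjusted p below 0.05, while DESeq2 and limma-voom each called 1 lower, Clec10a. Of the 5 cDC1 markers edgeR called Cadm1, and DESeq2 and limma-voom also called Cd24a lower. As a percentage of the parabiotic mean, transgenic replicates 23, 24, 26 and 27 held 102, 109, 34.2 and 7.73 of Clec9a and 157, 129, 22.3 and 29.5 of Wdfy4. They held 42.0, 60.7, 9.84 and 3.92 of Cd209a, 44.7, 84.3, 19.5 and 13.8 of Mgl2 and 42.7, 55.5, 8.72 and 8.21 of Clec10a. In replicates 23 and 24 Clec9a and Wdfy4 were thus at or above the parabiotic mean and the 3 cDC2 lectins below it, and in replicates 26 and 27 all 5 were below it. Cd24a, at 30.8, 28.3, 26 and 92.7, and Naaa, at 80.5, 80.6, 38.5 and 56.3, did not share the pattern of Clec9a. Cadm1, at 354, 399, 813 and 221, was above the parabiotic mean throughout. Sirpa, the remaining cDC2 marker, was at 127, 137, 101 and 61.4. Unlike the cDC2 lectins, it lay above the parabiotic mean in replicates 23, 24 and 26.

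**Figure D3:**
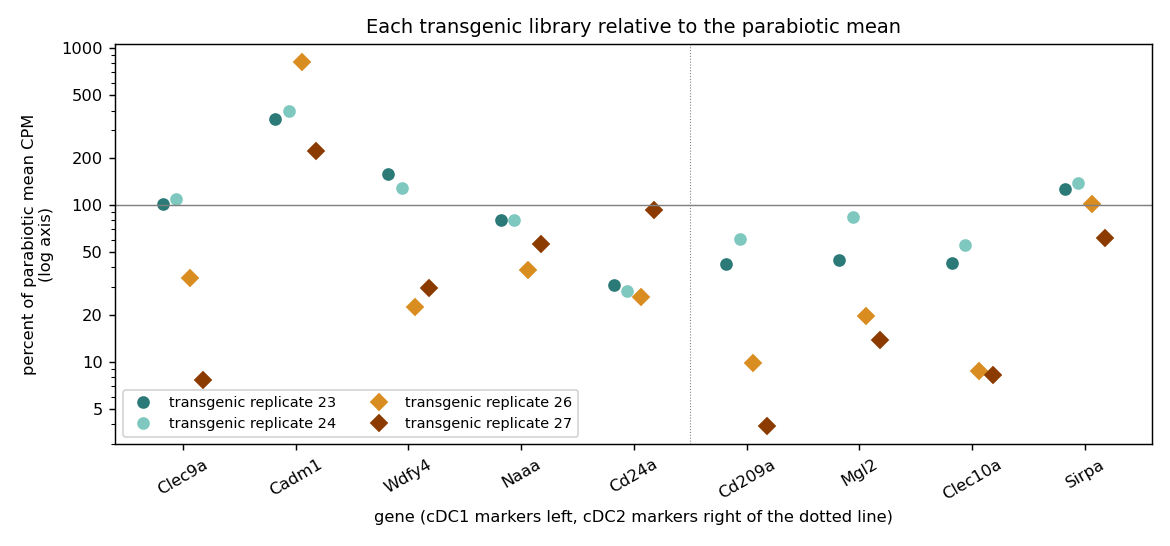
Each transgenic library's CPM as a percentage of the parabiotic mean (log axis) for the 5 cDC1 markers, left of the dotted line, and the 4 cDC2 markers, right of it; the grey line is 100%. Clec9a runs between 7.73% and 109%, Cadm1 between 221% and 813%, and Clec10a between 8.21% and 55.5%.

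The balance of the subsets was read from ratios between genes per kilobase of exon, as a description without a test. The ratio of Cd209a to Clec9a was 21.7, 29.2, 15.2 and 26.7 in transgenic replicates 23, 24, 26 and 27, 62.1, 30.5 and 63.9 in parabiotic replicates 3, 11 and 15, and 21.8, 14.8 and 33.3 in microglia replicates 39, 40 and 41. All 4 transgenic libraries had a lower ratio than the 3 parabiotic libraries, with replicates 24 and 11 close to each other. The ratio of Mgl2 to Clec9a was 4.01 to 16.3 in transgenic and 8.28 to 10.4 in parabiotic libraries. That of Clec10a to Clec9a was 2.65 to 11.1 in transgenic and 7.23 to 15.5 in parabiotic libraries. Both overlapped between transgenic and parabiotic libraries, and in both transgenic replicate 27, with 19 counts of Clec9a, was highest of its group. In microglia replicates 39, 40 and 41 they were 42.5, 18.9 and 77.6 for Mgl2, and 63.0, 20.9 and 46.6 for Clec10a. All microglia ratios rest on 2, 10 and 3 counts of Clec9a. The mean log2(CPM + 0.5) of the 5 cDC1 markers minus that of the 4 cDC2 markers was -0.24, -0.75, 0.33 and 0.85 in transgenic replicates 23, 24, 26 and 27, -1.04, -0.87 and -1.43 in parabiotic replicates 3, 11 and 15, and 0.34, -0.27 and -0.17 in microglia replicates 39, 40 and 41. The parabiotic libraries stood lowest on this balance. It includes Cadm1, Sirpa, Wdfy4 and Naaa, which averaged 211, 2724, 157 and 73.1 CPM in microglia, so it does not measure the subsets alone.

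Per kilobase of exon, the markers themselves differed widely in level. In transgenic cells Sirpa stood at 351 ± 111 CPM per kilobase, Cd209a at 27.9 ± 25.8, Naaa at 24.2 ± 7.73, Cd24a at 23.3 ± 16.9, Cadm1 at 21.5 ± 12.3, Wdfy4 at 16.6 ± 13.5, Mgl2 at 6.76 ± 5.34, Clec10a at 5.45 ± 4.55 and Clec9a at 1.15 ± 0.913. In parabiotic cells Sirpa stood at 329 ± 21.8, Cd209a at 95.9 ± 54.4, Cd24a at 52.4 ± 10.5, Naaa at 37.8 ± 8.62, Wdfy4 at 19.7 ± 2.71, Clec10a at 18.9 ± 6.12, Mgl2 at 16.6 ± 5.23, Cadm1 at 4.81 ± 0.709 and Clec9a at 1.82 ± 0.618. In microglia Sirpa stood at 555 ± 30.1, Cadm1 at 20.2 ± 7.84, Naaa at 19.7 ± 2.0, Wdfy4 at 14.9 ± 0.767, Mgl2 at 1.58 ± 0.771, Clec10a at 1.46 ± 0.445, Cd209a at 0.904 ± 0.503, Cd24a at 0.121 ± 0.0102 and Clec9a at 0.0464 ± 0.0410. Sirpa was highest and Clec9a lowest in all 3 groups. In transgenic cells only Sirpa stood apart, and no neighbours in the order from Cd209a down to Clec9a differed beyond their SDs. In parabiotic cells the same held for Cd209a, Cd24a and Naaa as neighbours and for Wdfy4, Clec10a and Mgl2. In microglia it held for Cadm1 and Naaa and for Mgl2, Clec10a and Cd209a.

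Other genes of the cDC1 subset, like its markers, included genes higher and genes lower than in microglia. Of 15 such genes, 14 passed the filter. In parabiotic cells against microglia 8 of them were called higher, 2 lower and 4 not called, where 17.4% of all genes were higher and 17.9% lower. Their median log2 fold change was 2.90, where all tested genes had -0.02. In transgenic cells against microglia the calls were 7 higher and 1 lower, with 6 not called (median 1.85, all genes 0.02). Over all genes 8.88% were called higher and 4.79% lower there. Xcr1, the chemokine receptor that defines cDC1, stood at 13.8 ± 9.74 CPM in transgenic cells, 19.0 ± 9.06 in parabiotic cells and 1.58 ± 0.365 in microglia, and was higher than in microglia by 3.59 ± 0.70 in parabiotic cells (adjusted p = 0.00243) and by 3.12 ± 0.67 in transgenic cells (adjusted p = 0.0127), or 3.78 ± 0.35 without replicates 26 and 27. Itgae, the CD103 integrin chain, was higher by 4.47 ± 0.81 in parabiotic cells (adjusted p = 0.00153). Gcsam, a signalling adaptor also found in germinal centre B cells, was higher by 8.67 ± 1.04 (adjusted p = 0.000103). The sensor of double-stranded RNA Tlr3 fell by 2.60 (SE 0.47, adjusted p = 0.00157) and Irf8 by 0.58 (SE 0.17, adjusted p = 0.0224) in parabiotic cells against microglia, which use both genes themselves. Batf3 differed by 0.03 ± 0.41 (adjusted p = 0.956).

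In transgenic against parabiotic cells edgeR called 2 of the 14 other cDC1 genes, both lower, where 10.1% of all genes were called (median of the 14 -0.52, all genes 0.04). The 2 lower genes were Ly75, the uptake receptor DEC-205 (-3.21 ± 0.73, adjusted p = 0.0169), and Rab7b, a regulator of vesicle traffic (-0.74 ± 0.19, adjusted p = 0.029). Xcr1 gave -0.46 ± 0.58 (adjusted p = 0.699). When transgenic replicates 26 and 27 were left out, Ly75 gave -2.44 ± 0.42, Rab7b -0.87 ± 0.16 and Xcr1 0.18 ± 0.32 (adjusted p = 0.003, 0.00336 and 0.725). Cd8a, which did not pass the filter, had 11 counts over the transgenic, 22 over the parabiotic and 0 over the microglia libraries.

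Of 12 other genes of the cDC2 subset, 7 were called higher, 1 lower and 4 not called in parabiotic cells against microglia (median 1.79). Over all genes 17.4% were called higher and 17.9% lower there. The transcription factors Irf4 (2.31 ± 0.68, adjusted p = 0.021) and Klf4 (1.67 ± 0.34, adjusted p = 0.00319) and the chemokine gene Ccl17 (5.45 ± 0.50, adjusted p = 1.73e-05) were among the higher genes. Itgam, the CD11b chain that microglia also carry, fell by 1.61 (SE 0.15, adjusted p = 1.99e-05). In transgenic cells against microglia the calls were 2 higher and 1 lower, with 9 not called (median 0.93), where 8.88% of all genes were higher and 4.79% lower. The higher genes were Ccl17 and the inhibitory lectin Clec12a (2.81 ± 0.52, adjusted p = 0.00609). Set against parabiotic cells, the transgenic cells had Itgam higher (0.83 ± 0.14, adjusted p = 0.00337), Ccl17 lower (-1.41 ± 0.35, adjusted p = 0.0272) and 10 genes not called (median -0.96). Over all genes 7.63% were higher and 2.42% lower there. With these libraries left out (replicates 26 and 27), Itgam gave 0.95 ± 0.10 and Ccl17 -1.73 ± 0.31 against parabiotic cells, and Clec12a 3.06 ± 0.39 against microglia. Without transgenic replicates 26 and 27, 9 other cDC1 genes and 6 other cDC2 genes were called higher in transgenic cells than in microglia, where 9.96% of all genes were.

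**Figure D4:**
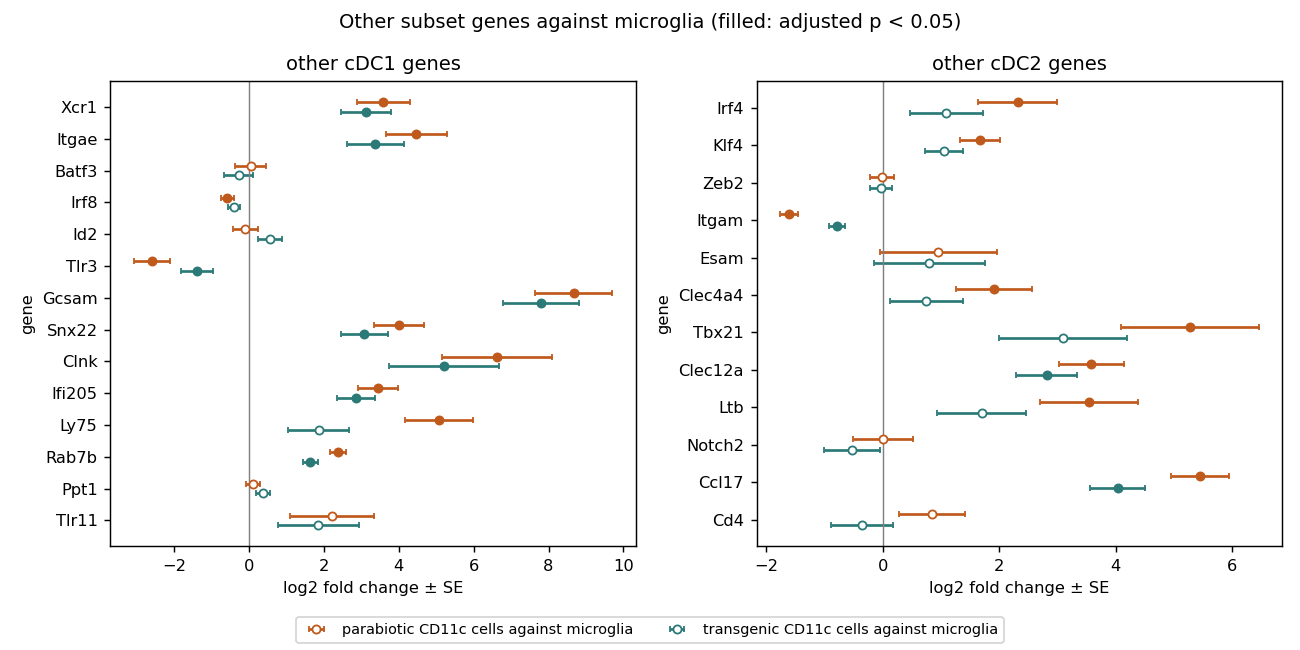
Log2 fold changes ± SE of other cDC1 genes (left, 14 tested) and other cDC2 genes (right, 12 tested) in parabiotic cells (orange) and transgenic cells (teal), each against microglia; filled points had an adjusted p below 0.05. Gcsam reaches 8.67 in parabiotic cells on the cDC1 side, Ccl17 5.45 on the cDC2 side, and Tlr3 and Itgam lie below 0.

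Genes that both subsets share were higher throughout in parabiotic cells. All 15 genes of conventional dendritic cells were called higher in parabiotic cells than in microglia (median 7.32), where 17.4% of all genes were. In transgenic cells 14 of 15 were called higher than in microglia (median 5.71), where 8.88% of all genes were. Flt3, the receptor of the growth factor on which both subsets depend, stood at 55.9 ± 37.0 CPM in transgenic cells, 143 ± 16.6 in parabiotic cells and 1.30 ± 0.658 in microglia. Set against parabiotic cells, transgenic cells had 5 of the 15 lower, where 2.42% of all genes were, and 10 were not called (median -1.49). Without transgenic replicates 26 and 27, 11 of the 15 were lower, where 9.23% of all genes were. Of 12 monocyte genes, 10 were called higher in parabiotic cells than in microglia, where 17.4% of all genes were. In transgenic cells 8 were, where 8.88% of all genes were, or 9 without replicates 26 and 27, where 9.96% were. The 12 genes summed to 1603 to 7547 CPM in transgenic, 5573 to 7541 in parabiotic and 1135 to 1500 in microglia libraries. They did not follow the cDC2 lectins in each library. Their highest sum was in transgenic replicate 27, the library of CD11c cells with the lowest Cd209a, Mgl2 and Clec10a. Since monocyte-derived cells can carry Cd209a, Mgl2, Clec10a and Sirpa, the share of these levels that belongs to cDC2 was not tested. The border macrophage genes, whose cells use Clec10a and Sirpa, summed to 1124 to 1631, 1369 to 1695 and 1403 to 1532 CPM in transgenic, parabiotic and microglia libraries. Their members moved both ways: of 11, 3 were higher and 4 lower in parabiotic cells than in microglia, where 17.4% and 17.9% of all genes were. In transgenic cells 3 were higher and 2 lower, where 8.88% and 4.79% of all genes were. Without replicates 26 and 27 these were 2 and 5, where 9.96% and 5.69% of all genes were. Ms4a7 averaged 261 ± 96.2 CPM in transgenic cells, 473 ± 131 in parabiotic cells and 43.1 ± 28.4 in microglia, and Lyve1 1.02 ± 1.86, 0.446 ± 0.531 and 14.3 ± 4.94 CPM. The part of these cells in the levels of Clec10a and Sirpa was not tested.

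Genes that act with the markers were counted as well. Of 8 genes of cross-presentation, the task of cDC1, 2 were called higher in parabiotic cells than in microglia, 1 lower and 5 not called, a share close to the 35.3% of all genes called. The higher ones were Cybb, a subunit of the phagosomal oxidase (2.03 ± 0.29, adjusted p = 0.000308), and Syk, the kinase that Clec9a signals through (1.01 ± 0.27, adjusted p = 0.0143), and Tlr3 was the lower one. Tap1, a transporter of peptides to MHC class I, gave -0.54 ± 0.28 (adjusted p = 0.169). In transgenic cells against microglia the calls were 1 higher and 2 lower, with 5 not called, where 8.88% of all genes were higher and 4.79% lower. The lower genes were Tap1 (-0.91 ± 0.26, adjusted p = 0.0437) and Tlr3 (-1.40 ± 0.42, adjusted p = 0.048). Leaving out transgenic replicates 26 and 27, these were -0.59 ± 0.15 and -1.12 ± 0.24 (adjusted p = 0.025 and 0.00975). The calls were then 2 higher and 2 lower, where 9.96% and 5.69% of all genes were. With transgenic cells set against parabiotic cells, edgeR called 0 of the 8, where 10.1% of all genes were called. Of the 8, 2 had an unadjusted p below 0.05, while DESeq2 called 1 higher and limma-voom 0. With transgenic replicates 26 and 27 left out, edgeR called 1 higher and 1 lower, where 22.5% of all genes were called.

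Of 8 binding partners of the marker proteins 7 passed the filter, and 5 were called higher in parabiotic cells than in microglia, where 17.4% of all genes were. Cd47, the ligand of Sirpa, stood at 315 ± 101 CPM in transgenic cells, 431 ± 6.87 in parabiotic cells and 196 ± 30.2 in microglia. In parabiotic cells against microglia it was higher (1.14 ± 0.23, adjusted p = 0.00322), where Sirpa was lower. Siglecg, a receptor for Cd24, was higher by 4.61 ± 0.86 (adjusted p = 0.00171), and Skap2, an adaptor bound by Sirpa, by 1.00 ± 0.15 (adjusted p = 0.00035). The phosphatases Ptpn6 and Ptpn11, which Sirpa recruits, gave -0.13 ± 0.27 (adjusted p = 0.741) and 0.36 ± 0.20 (adjusted p = 0.183). Crtam, the partner of Cadm1, did not pass the filter.

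Of 18 relatives of the markers 13 passed the filter, and 5 were called higher and 3 lower in parabiotic cells than in microglia. Over all genes 17.4% were called higher and 17.9% lower, so the lower relatives were near the share of all genes. The signal-regulatory genes Sirpb1a, Sirpb1b and Sirpb1c, relatives of Sirpa, were higher by 6.48 ± 0.48, 6.56 ± 0.37 and 6.58 ± 0.42 (adjusted p = 6.04e-06, 1.65e-06 and 2.63e-06), where Sirpa itself was lower. These 3 genes resemble each other closely, and the split of reads among them is uncertain. Among the relatives of Cd209a, Cd209c was higher by 5.48 ± 0.84 (adjusted p = 0.000495), while Cd209f had 12 counts over the transgenic, 0 over the parabiotic and 342 over the microglia libraries. Of the lower genes Wdfy1 fell by 0.68 (SE 0.21, adjusted p = 0.0298) and Cadm4 by 2.62 (SE 0.53, adjusted p = 0.00286).

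For each marker the genes with the most similar profile over the 10 libraries were found, as the smallest root mean square difference between log2 levels centred on each gene's mean. Nearest to Clec9a were Xcr1 (0.18), Kctd14 (0.23) and Snx22 (0.23), of which Xcr1 and Snx22 are on the cDC1 list. Nearest to Clec10a were Cd7 (0.21), Ltb (0.30) and Tbx21 (0.33), of which Ltb and Tbx21 are on the cDC2 list. Nearest to Cd209a were Kmo (0.37), Epcam (0.43) and Ciita (0.52), the activator of MHC class II genes, and nearest to Mgl2 were Map4k1 (0.36), Cnn2 (0.39) and Itgax (0.40). The closest genes to Cd24a were Emb (0.33), Emp1 (0.37) and Anxa1 (0.41), none of them on a subset list. Cadm1 was closest to the mitotic spindle gene Tpx2 (0.19), Parpbp (0.20) and Cd180 (0.22), Wdfy4 to Nbeal2 (0.21), Sipa1l3 (0.33) and Peg13 (0.35), Naaa to Col11a2 (0.097), Fam234b (0.15) and Slc25a33 (0.16), and Sirpa to Usp21 (0.065), Dlgap4 (0.085) and Galnt10 (0.089). Among the markers, Mgl2 and Clec10a were closest to each other (0.46), and Clec9a was closer to Mgl2 (0.51) than to any cDC1 marker. Small values are easier to reach for genes that vary little, as Sirpa and Naaa do.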

How the data were processed

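The authors deposited a table of raw counts, as whole numbers, with 28585 Ensembl genes and 10 libraries of sorted cells of the ischemic hemisphere. The submitters' processing notes name STAR 2.5.3a, FastQC 0.11.5, DESeq2 and the build GRCm38. Which program, annotation and strand setting were used for counting, and how multiply mapped reads were treated, is not given in the sources used. Per the labels' protocols, cDNA came from a low-input template-switching kit and libraries from a kit that does not mark strand. Symbols and coordinates came from GENCODE M21, which held 28492 of the identifiers.

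Groups followed the labels and titles, and parabiotic replicate 15, whose labels give no cell type, was placed by its title. All 10 libraries entered one fit of edgeR 4.0.16 (R 4.3.3) with a mean per group, TMM scaling, filterByExpr (15151 genes kept, 13434 removed), robust glmQLFit and glmQLFTest, and Benjamini-Hochberg adjustment with a threshold of 0.05. The SE is the log2 fold change divided by the square root of F. The biological coefficient of variation was 0.317, and for genes at a few counts, such as Clec9a in microglia, counting error added to that spread. Levels per kilobase used the exon length of the gene model. The alternatives were RLE and upper quartile scaling, DESeq2 1.42.0, limma-voom (limma 3.58.1), no filter or at least 5 CPM in at least 3 libraries, a fit of the 2 groups compared, a term for library number, a 2-fold minimum and each library left out.

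The markers and gene lists were chosen with earlier results of these data known. The genes named are the 9 markers, genes of the lists beside their counts, and the 3 nearest profiles of each marker, without predicted or clone symbols. Promoters came from RefSeq on GRCm38.p6, and those of Cadm1, Cd24a, Clec10a and Sirpa were not used here.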

Additional observations from a re-analysis of the deposited data

Results flagged for a closer look

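Cd24a in transgenic replicate 27 lay far from the other 3 libraries of its group, at 125 CPM, where replicates 23, 24 and 26 had 41.7, 38.2 and 35.1 CPM. The gap to the nearest library was 0.927 of the range of the group, above Dixon's 95% critical value for 4 libraries. All 9 markers were checked in this group, and chance alone flags about 1 group in 20.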

How the results depend on the processing

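In parabiotic cells against microglia 5347 genes and 8 markers were called. The genes called were 8334 without transgenic replicates 26 and 27, and leaving out 1 library gave 3747 to 6458 genes and 6 to 8 markers. In transgenic cells against microglia 2070 genes and 4 markers were called. The genes were 3277 with DESeq2, 1229 with the 2 groups alone and 1303 with a term for library number. The markers called were 1 with limma-voom, 2 without a filter, 6 with DESeq2 or the library term and 7 without transgenic replicates 26 and 27, where 2417 genes were called, and leaving out 1 library gave 746 to 2684 genes, the fewest without microglia replicate 39, and 1 to 5 markers. Without microglia replicate 39 the calls of Clec9a (adjusted p = 0.0619) and Cd209a (0.0515) were lost. Between transgenic and parabiotic cells 1523 genes and 1 marker were called. The genes were 2360 with DESeq2, 999 with the 2 groups alone and 3482 without replicates 26 and 27. The markers were 3 with DESeq2 and with limma-voom, 2 with the library term and 5 without replicates 26 and 27, and leaving out 1 library gave 830 to 2510 genes and 1 to 3 markers. The balance of cDC1 and cDC2 markers without Sirpa, Cd24a and Cadm1 averaged 1.07 in transgenic cells, -0.16 in parabiotic cells and 2.66 in microglia. It still held Wdfy4 and Naaa, at 157 and 73.1 CPM in microglia, where Cd209a, Mgl2 and Clec10a averaged 1.43, 3.30 and 4.23 CPM.

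The values that changed sign were not called among all 10 libraries. In transgenic cells against microglia Wdfy4 was -0.33 with limma-voom, and ran between -0.33 and 0.46 with 1 library left out, below 0 without transgenic replicate 23 or 24. Cadm1 was -0.16 with the library term and -0.16 without replicates 26 and 27, and ran between -0.40 and 0.41 with 1 library left out, below 0 without transgenic replicate 26 or microglia replicate 39. In transgenic against parabiotic cells, Clec9a was 0.081 with the library term and 0.066 without replicates 26 and 27, and Wdfy4 was 0.52 and 0.50. With 1 library left out Wdfy4 ran between -0.73 and 0.045, above 0 without transgenic replicate 26 or 27, and Sirpa between -0.053 and 0.29, below 0 without replicate 23 or 24. The cause was not tested. All scalings tried (RLE, upper quartile) called the same number of markers, and upper quartile scaling moved the median of all genes in parabiotic cells against microglia to -0.10. No paired analysis was possible because the groups share no replicate number. Depth limits Clec9a most, at 2 to 10 counts in microglia.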
